A study of Arabidopsis thaliana with 12 samples.

Results

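Transcript levels of 10 Arabidopsis genes that remove, store or move the hormone abscisic acid (ABA) were taken from one-colour microarrays of whole seedlings. The genes were chosen by locus, for the role of their product, out of 20282 matched genes among the 23680 features tested. They were the ABA 8′-hydroxylase genes *CYP707A1* (AT4G19230), *CYP707A2* (AT2G29090), *CYP707A3* (AT5G45340) and *CYP707A4* (AT3G19270), the glucosyltransferase gene *UGT71B6* (AT3G21780), the β-glucosidase gene *BGLU33* (AT2G32860), and the transporter genes *ABCG25* (AT1G71960), *ABCG40* (AT1G15520), *NPF4.6* (AT1G69850) and *DTX50* (AT5G52050). All 10 genes had at least 1 probe that passed the filter on dim signal, and each of their 15 probes was well above background on all 12 arrays.

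Seedlings of iU1-52 on MS with 200 mM NaCl, Col-0 on MS with 200 mM NaCl, iU1-52 on MS and Col-0 on MS formed the 4 groups, with 3 replicates and 3 arrays in each. iU1-52 is 1 transgenic line that carries a construct for double-stranded RNA interference with *GlcNA.UT1* in the background of the *glcna.ut2-1* mutation, and Col-0 is the wild type. The contribution of the transgene and that of the mutation therefore cannot be told apart in these arrays. Seeds were sown directly on half-strength MS agar with sucrose, with or without salt, and whole seedlings were harvested at 14 days, so that salted plants had been on NaCl since sowing.

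ABA is the hormone that keeps seeds dormant, arrests early seedlings and closes stomata when water is short. Its level in a cell depends on synthesis, on destruction, on storage as an inactive conjugate and on movement across membranes. The CYP707A cytochromes P450 hydroxylate ABA at the 8′ position, and the product turns into phaseic acid, which has little activity. UGT71B6 joins ABA to glucose, and the ABA glucose ester is held in the vacuole. β-Glucosidases release ABA from this ester, BGLU33 (also called BG2) in the vacuole and BGLU18 (also called BG1) in the endoplasmic reticulum. ABCG25 exports ABA from cells, chiefly in the vasculature, ABCG40 takes it up, including into guard cells, NPF4.6 was first described as a low-affinity nitrate transporter and also imports ABA, and DTX50 is an ABA efflux carrier of the MATE family.

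Every level below is a quantile-normalized log2 signal, and a difference of 1 on this scale is 2-fold. A gene was called at an adjusted p under 0.05 (limma, Benjamini-Hochberg over all 23680 features) and a change of 2-fold or more. Signals of different probes were not set against each other. Replicate iU1-52 NaCl 1 stood somewhat apart from its group: the median SD of a feature was 0.215 among the salted iU1-52 arrays, against 0.0714 among the salted Col-0 arrays and between 0.0788 and 0.0794 in the MS groups. *GlcNA.UT1* was not analysed here. The brighter of the 2 probes for *GlcNA.UT2* gave 12.19 to 12.70 in salted iU1-52 against 12.88 to 12.95 in salted Col-0, and 11.62 to 11.84 in iU1-52 on MS against 12.66 to 12.85 in Col-0 on MS. The dimmer probe gave 8.03 to 8.62 in salted iU1-52 against 9.71 to 9.74 in salted Col-0, and 7.32 to 7.38 in iU1-52 on MS against 9.48 to 9.59 in Col-0 on MS. The lines did not overlap in either medium, and where the probes lie relative to the mutation was not determined.

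Under salt stress, iU1-52 seedlings had more transcript of a pair of hydroxylase genes and a pair of transporter genes than Col-0, and far less of *BGLU33*. Of the 10 genes, *CYP707A1*, *CYP707A2*, *ABCG25* and *ABCG40* were called higher, where 5.35% of all features were called higher, and *BGLU33* was called lower, where 5.68% were called lower. The 5 calls compare with 11.0% of features called in both directions together. The median difference of the 10 genes was 0.45, against 0.05 over all features. With no fold limit, 7 of the 10 passed the adjusted p, and 51.0% of all features did so.

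On MS, *ABCG40* was the 1 gene of the 10 called between the lines, where 0.321% of features were called (0.300% higher and 0.0211% lower) and 0.519% passed the adjusted p with no fold limit. The salt response itself differed between the lines (the interaction, in which the line difference on MS is subtracted from that on NaCl) for *CYP707A2*, *ABCG25* and *BGLU33*, 3 of 10 genes where 9.54% of features were called (4.27% higher and 5.27% lower). With no fold limit 5 of the 10 passed the adjusted p of the interaction, as did 28.8% of all features. Salt called 6 of the 10 genes in iU1-52, 5 higher and 1 lower, where 27.4% of features were called (13.1% higher and 14.4% lower). It called 6 in Col-0, 5 higher and 1 lower, where 23.2% were called (11.1% higher and 12.1% lower). With no fold limit 8 of the 10 passed in iU1-52, against 68.0% of all features, and 8 in Col-0, against 69.0%. *CYP707A1*, *CYP707A3*, *CYP707A4* and *DTX50* were called higher with salt in both lines, *BGLU33* was called lower in both, *CYP707A2* was called in iU1-52 and *ABCG40* in Col-0. These comparisons share arrays, so that their calls are not independent.

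**Figure D1:**
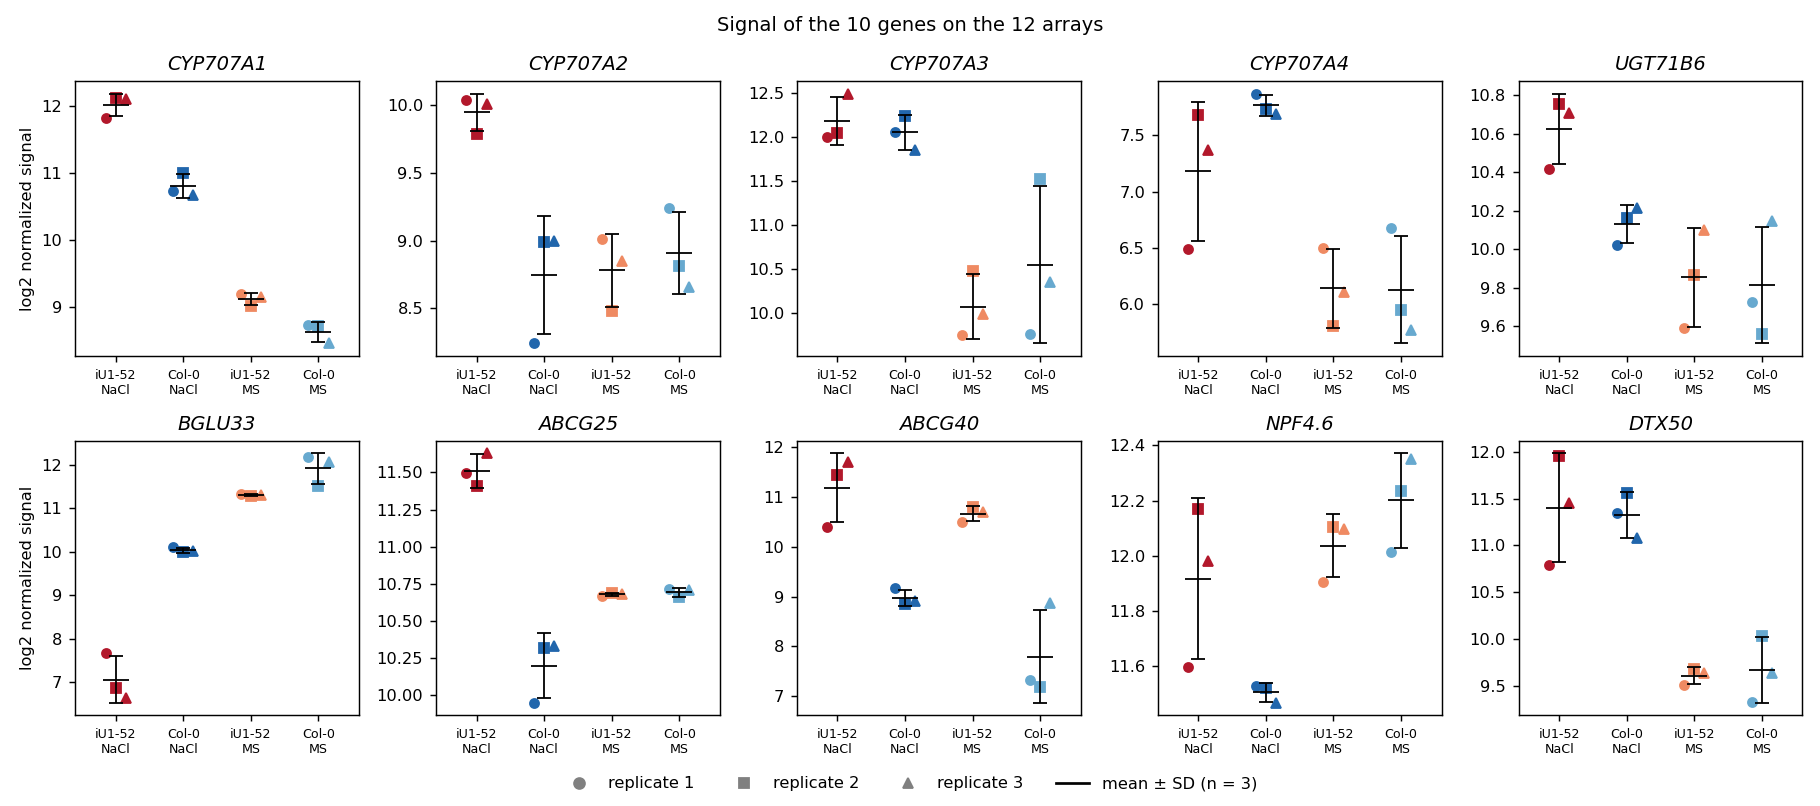
Normalized log2 signal (y axis) of the 10 genes on each array, with 1 panel per gene and the groups iU1-52 NaCl, Col-0 NaCl, iU1-52 MS and Col-0 MS from left to right; points are arrays and bars are means ± SD of 3 replicates. *BGLU33* lies at 6.64 to 7.67 in salted iU1-52 and above 10 in salted Col-0, and *ABCG25* is higher in salted iU1-52 than on any other array.

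*CYP707A1*, which is active in maturing seeds and in vegetative tissue, had the 4 groups in a strict order without any overlap. Its level was 11.83, 12.13 and 12.11 in salted iU1-52, against 10.73, 11.01 and 10.67 in salted Col-0. On MS it was 9.19, 9.02 and 9.16 in iU1-52, against 8.73, 8.72 and 8.46 in Col-0. Salted iU1-52 was highest, salted Col-0 next, and both MS groups lay well beneath them.

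The difference of iU1-52 from Col-0 in *CYP707A1* was 1.22 under NaCl (SE 0.12, 2.32-fold, limma adjusted p = 2.5e-05). It was 0.49 on MS, where the arrays did not overlap but the adjusted p of limma was 0.16. Salt raised the gene 7.44-fold in iU1-52 and 4.49-fold in Col-0. The difference between these salt responses was 0.73 (SE 0.17, limma adjusted p = 0.010), which passed the adjusted p and stayed under 2-fold. A second, dimmer *CYP707A1* probe received the same calls in all 5 comparisons. Its line difference on MS was 0.55, which passed the adjusted p (limma, 0.049) and stayed under 2-fold.

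*CYP707A2*, the hydroxylase gene best known for the fall in ABA when seeds take up water, was high in 1 group. The arrays of salted iU1-52 read 10.04, 9.79 and 10.01, against 8.24, 8.99 and 9.001 in salted Col-0. The MS arrays read 9.01, 8.48 and 8.85 in iU1-52 and 9.24, 8.82 and 8.66 in Col-0. Every salted iU1-52 array was above every other array, while the remaining 3 groups overlapped.

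For *CYP707A2*, iU1-52 exceeded Col-0 by 1.20 under NaCl (SE 0.23, 2.30-fold, limma adjusted p = 0.0016), and the difference fell to 0.95, under 2-fold, without Col-0 NaCl replicate 1, the lowest array. On MS the difference was -0.13 (95% interval -0.63 to 0.38). Salt raised it by 1.17 in iU1-52 (SE 0.23, limma adjusted p = 0.00090), and the change in Col-0 was -0.16 (95% interval -0.66 to 0.34). The interaction was 1.33 (SE 0.32, limma adjusted p = 0.012).

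*CYP707A3*, a hydroxylase gene of vegetative tissue known for its response to dehydration and rehydration, was raised by salt in both lines and was not called between the lines. It read 12.004, 12.05 and 12.50 in salted iU1-52 and 12.06, 12.25 and 11.86 in salted Col-0. On MS it read 9.76, 10.48 and 9.98 in iU1-52 and 9.77, 11.53 and 10.36 in Col-0. The lines overlapped in both media, and Col-0 MS replicate 2 lay closer to the salted arrays than to its own group.

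Salt raised *CYP707A3* by 2.11 in iU1-52 (SE 0.37, limma adjusted p = 0.00048) and by 1.51 in Col-0 (SE 0.37, limma adjusted p = 0.0044). The line difference was 0.13 under NaCl, with a 95% interval of -0.70 to 0.96, and -0.48 on MS, with one of -1.30 to 0.35. Its second probe received the same calls. Another, dim probe did not, with 8.56 on Col-0 MS replicate 2 against 5.17 and 5.02 on the other Col-0 MS arrays, and its salt differences of 1.78 in iU1-52 and 0.82 in Col-0 missed the adjusted p (limma, 0.054 and 0.35).

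*CYP707A4*, the remaining hydroxylase gene, gave a dim signal. Salted iU1-52 had 6.49, 7.68 and 7.37, against 7.87, 7.74 and 7.69 in salted Col-0, and the MS arrays had 6.50, 5.81 and 6.11 in iU1-52 and 6.67, 5.95 and 5.77 in Col-0. The highest salted iU1-52 array lay just under the lowest salted Col-0 array, and iU1-52 NaCl replicate 1 fell among the MS arrays.

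The line difference of *CYP707A4* under NaCl was -0.59 (SE 0.31, limma adjusted p = 0.14, 95% interval -1.28 to 0.11), and -0.24 without iU1-52 NaCl replicate 1, so that no direction is given for it. Salt raised the gene by 1.64 in Col-0 (SE 0.31, limma adjusted p = 0.00091). The salt change in iU1-52 was 1.04 (SE 0.31, limma adjusted p = 0.013) with overlapping arrays, and it fell under 2-fold without iU1-52 MS replicate 2 (0.88), iU1-52 NaCl replicate 2 (0.81) or iU1-52 NaCl replicate 3 (0.95). Scaling to the 75th percentile gave 0.98, and background correction with normexp took it to 0.47 in iU1-52 and to 0.78 in Col-0, both under 2-fold.

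**Figure D2:**
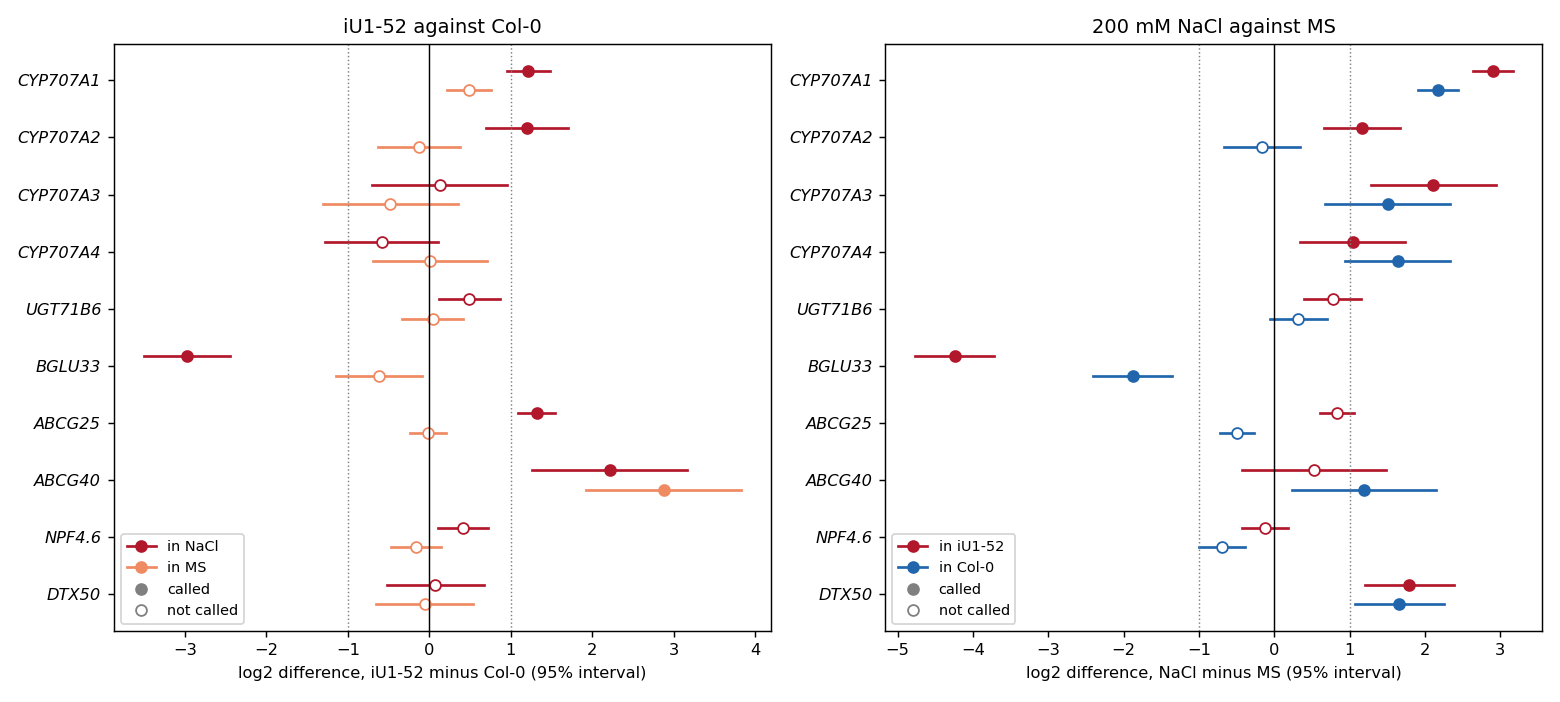
Differences in normalized log2 signal with 95% intervals (x axis) for the 10 genes (rows): iU1-52 minus Col-0 on NaCl and on MS, and NaCl minus MS in each line. *BGLU33* reaches -2.98 for the line difference under NaCl and -4.24 for the salt response of iU1-52, and *ABCG40* has line differences of 2.21 on NaCl and 2.88 on MS.

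Among the conjugation genes, *UGT71B6* changed little and *BGLU33* had the greatest line difference under NaCl of all 10 genes and, in iU1-52, the greatest salt response. *UGT71B6* read 10.42, 10.75 and 10.705 in salted iU1-52, against 10.02, 10.16 and 10.21 in salted Col-0. On MS it lay between 9.59 and 10.10 in iU1-52 and between 9.56 and 10.15 in Col-0. Salted iU1-52 was above each other group, and salted Col-0 overlapped Col-0 on MS.

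The line difference of *UGT71B6* under NaCl was 0.49 (SE 0.17, limma adjusted p = 0.032), or 1.41-fold, and salt raised it by 0.77 in iU1-52 (SE 0.17, limma adjusted p = 0.0019). Both passed the adjusted p and stayed under 2-fold. *UGT71B6*, *UGT71B7* and *UGT71B8* stand next to each other on chromosome 3 and are close in sequence, and whether their probes share signal was not tested. *UGT71B7* gave 0.21 for the same line difference (limma adjusted p = 0.039) and *UGT71B8* gave 0.47 (limma adjusted p = 0.13).

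*BGLU33* fell in salted seedlings of both lines and fell further in iU1-52. It read 7.67, 6.87 and 6.64 in salted iU1-52, against 10.10, 10.001 and 10.007 in salted Col-0. On MS it read 11.32, 11.28 and 11.30 in iU1-52, against 12.17, 11.52 and 12.06 in Col-0. None of the 4 groups overlapped, with Col-0 on MS highest and salted iU1-52 lowest.

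Salted iU1-52 seedlings had 7.87-fold less *BGLU33* transcript than salted Col-0 seedlings (log2 difference -2.98, SE 0.24, limma adjusted p = 6.5e-06). Salt lowered the gene 18.9-fold in iU1-52 (-4.24, limma adjusted p = 7.6e-08) and 3.68-fold in Col-0 (-1.88, limma adjusted p = 5.0e-05). The interaction was -2.36 (SE 0.34, limma adjusted p = 0.00068). On MS the line difference was -0.62 with arrays that did not overlap (limma adjusted p = 0.64). Within the 3 slides, each of which held 1 array of every group, the line difference under NaCl was -2.43, -3.13 and -3.37. A second *BGLU33* probe received the same calls. With normexp background correction these values were smaller, at -2.28 for the lines under NaCl, -3.49 for salt in iU1-52 and -1.70 for the interaction, and all 3 kept their calls.

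**Figure D3:**
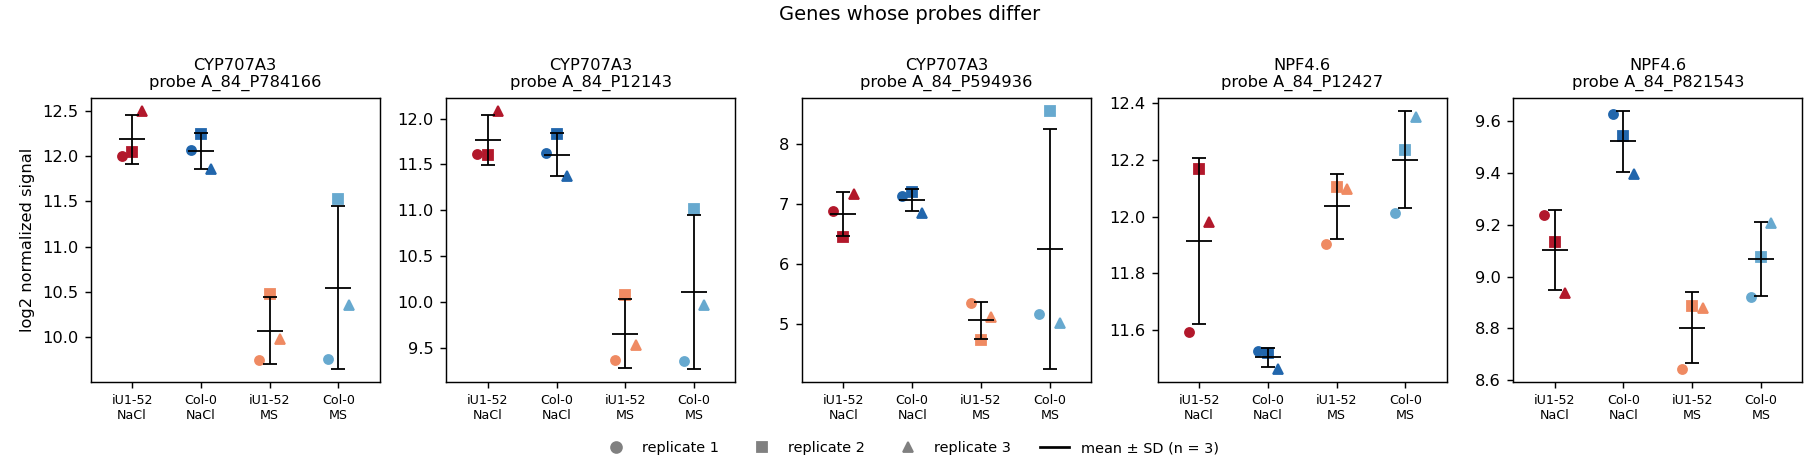
Normalized log2 signal (y axis) of every probe of *CYP707A3* and *NPF4.6* on each array. Groups (x axis) are iU1-52 NaCl, Col-0 NaCl, iU1-52 MS and Col-0 MS from left to right. The second *NPF4.6* probe lies at 8.94 to 9.24 in salted iU1-52 and 9.40 to 9.63 in salted Col-0, a line difference opposite to that of the first.

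Of the transporter genes, *ABCG25* differed between the lines under salt and not on MS, and the sign of its salt response differed as well. Salted iU1-52 had 11.50, 11.41 and 11.63, against 9.94, 10.32 and 10.33 in salted Col-0. The MS arrays had 10.66, 10.68 and 10.68 in iU1-52, against 10.71, 10.66 and 10.71 in Col-0. Salted iU1-52 lay above all MS arrays, and salted Col-0 lay beneath all of them.

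*ABCG25* was 2.49-fold higher in iU1-52 than in Col-0 under NaCl (log2 difference 1.32, SE 0.10, limma adjusted p = 5.4e-06). On MS the lines differed by -0.01 (95% interval -0.24 to 0.21). The salt change was 0.83 in iU1-52 (SE 0.10, limma adjusted p = 3.0e-05) and -0.50 in Col-0 (SE 0.10, limma adjusted p = 0.0014), each past the adjusted p and under 2-fold. The interaction was 1.33 (SE 0.14, limma adjusted p = 0.00014), and within the slides it was 1.60, 1.06 and 1.33.

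*ABCG40* was higher in iU1-52 in both media. It read 10.40, 11.46 and 11.72 in salted iU1-52, against 9.16, 8.86 and 8.91 in salted Col-0. On MS it read 10.51, 10.81 and 10.69 in iU1-52, against 7.33, 7.18 and 8.87 in Col-0. Every iU1-52 array was above every Col-0 array, while the media overlapped within each line, and Col-0 MS replicate 3 read as high as salted Col-0.

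The difference of iU1-52 from Col-0 in *ABCG40* was 2.21 under NaCl (SE 0.43, 4.64-fold, limma adjusted p = 0.0019) and 2.88 on MS (SE 0.43, 7.34-fold, limma adjusted p = 0.020). The MS difference stayed between 2.57 and 3.41 when single arrays were left out. Its limma adjusted p was above 0.05, however, without iU1-52 MS replicate 1 (0.051), 2 (0.10) or 3 (0.090) or Col-0 MS replicate 1 (0.078) or 2 (0.069), and with only the MS arrays in the fit (0.091). The interaction was -0.66 (95% interval -2.01 to 0.69). Salt changed it by 1.19 in Col-0 (SE 0.43, limma adjusted p = 0.030) with overlapping arrays, a call that was lost without Col-0 MS replicate 1 (0.95) or 2 (0.88), without any 1 of the Col-0 NaCl arrays (limma adjusted p 0.083, 0.054 and 0.059), with only the Col-0 arrays in the fit (limma adjusted p 0.051) and with normexp (0.84). Without Col-0 MS replicate 3 this salt difference was 1.72.

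*NPF4.6* had probes that did not go the same way. The brighter probe read 11.59, 12.17 and 11.98 in salted iU1-52, against 11.53, 11.52 and 11.46 in salted Col-0. On MS it read 11.90 to 12.10 in iU1-52 and 12.01 to 12.35 in Col-0. Salted Col-0 lay beneath every other group, and the remaining groups overlapped.

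By this brighter probe, *NPF4.6* was 0.41 higher in iU1-52 under NaCl (SE 0.14, limma adjusted p = 0.030) and was lowered by salt in Col-0 (-0.70, SE 0.14, limma adjusted p = 0.0011), and both differences were under 2-fold. By the dimmer probe, iU1-52 was lower than Col-0 under NaCl (-0.42, limma adjusted p = 0.0099) and salt raised the signal in Col-0 (0.45, limma adjusted p = 0.0040). No direction can be given for this gene, and which transcripts each probe detects was not determined.

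*DTX50* responded to salt in both lines and the line differences were small. It read 10.80, 11.96 and 11.45 in salted iU1-52 and 11.35, 11.56 and 11.07 in salted Col-0. On MS it read 9.52, 9.68 and 9.64 in iU1-52 and 9.33, 10.03 and 9.64 in Col-0. The lines overlapped in each medium, and every salted array was above every MS array.

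Salt raised *DTX50* by 1.79 in iU1-52 (3.46-fold, SE 0.27, limma adjusted p = 0.00014) and by 1.66 in Col-0 (3.16-fold, SE 0.27, limma adjusted p = 0.00028). The line difference was 0.07 under NaCl (95% interval -0.52 to 0.67) and -0.06 on MS (95% interval -0.65 to 0.53). The interval under NaCl leaves room for differences of up to 0.67 on the log2 scale.

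Genes with neighbouring roles were counted from 3 lists. Of 7 further genes of ABA catabolism and conjugation, 1 was called between the lines under NaCl, where 11.0% of all features were called, and it was lower: *BGLU18*, which encodes the β-glucosidase of the endoplasmic reticulum. *BGLU18* read 14.84, 15.76 and 14.90 in salted iU1-52, against 16.67, 16.70 and 16.71 in salted Col-0. On MS it read 15.62, 15.92 and 15.56 in iU1-52, against 15.27, 15.09 and 14.84 in Col-0. The lines thus stood in opposite order in the media, with iU1-52 lower on NaCl and higher on MS, where the difference of 0.63 missed the adjusted p (limma, 0.49).

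The line difference of *BGLU18* under NaCl was -1.53 (SE 0.22, limma adjusted p = 0.00029). Its interaction reached -2.16 (SE 0.31, limma adjusted p = 0.00070). Salt raised *BGLU18* 3.08-fold in Col-0 (1.63, limma adjusted p = 7.6e-05), in which *BGLU33* fell by 1.88 on the log2 scale. Salt also raised *ABH2*, which encodes a reductase that acts on phaseic acid, by 2.46 in iU1-52 and 1.88 in Col-0, and *UGT71B8* by 1.64 in iU1-52 and 1.26 in Col-0 (limma adjusted p between 1.1e-06 and 0.00096). *UGT71B8* was dim, and 2 of its 3 arrays were well above background in each MS group. In all, salt called 2 of these 7 genes in iU1-52, where 27.4% of all features were called, and 3 in Col-0, where 23.2% were called. The count in iU1-52 was 1 with normexp, where 22.1% of all features were called. It was also 1 without iU1-52 NaCl replicate 2, where 27.5% were called.

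Of 12 further transporter genes, 11 were tested, since *NPF4.2* was under the signal limit, and 2 of them were called between the lines under NaCl, both higher in iU1-52, where 5.35% of all features were called higher. *ABCG30*, whose product imports ABA into the seed embryo, read 10.90, 12.54 and 12.11 in salted iU1-52 against 9.97, 10.31 and 10.06 in salted Col-0 (difference 1.74, SE 0.34, limma adjusted p = 0.0019). *ABCG16*, which encodes another transporter of the family, read 9.17, 10.08 and 9.79 in salted iU1-52 against 7.73, 7.88 and 7.97 in salted Col-0 (difference 1.82, SE 0.23, limma adjusted p = 0.00013). For both genes every salted iU1-52 array lay above every salted Col-0 array.

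Salt called 6 of the 11 transporter genes in each line, 3 higher and 3 lower, where 27.4% of all features were called in iU1-52 and 23.2% in Col-0. *NPF4.1*, which encodes an importer of the same family as NPF4.6, rose by 3.08 in iU1-52 and 2.73 in Col-0. *ABCG31*, whose product exports ABA from the endosperm of the seed together with ABCG25, had salt differences of -2.49 in iU1-52 and -2.58 in Col-0. *ABCG22*, a gene with a role in stomata, had -1.61 in iU1-52 and -1.72 in Col-0, and *NPF5.1* had -1.13 in iU1-52 and -1.11 in Col-0 (limma adjusted p at most 1.4e-05 for these 4 genes). The greatest rise of the list in iU1-52, 3.13, was in a gene other than *NPF4.1*.

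The synthesis side was counted in the same way. Of 10 genes of ABA biosynthesis, 9 were tested, since *NCED6* was under the signal limit, and 3 were called between the lines under NaCl, all higher in iU1-52, where 5.35% of all features were called higher. Leaving out single arrays gave between 2 and 3 calls. With no fold limit 7 of the 9 passed the adjusted p, 5 higher and 2 lower in iU1-52, where 51.0% of all features passed. *NCED3*, which encodes the dioxygenase that limits ABA synthesis in stressed leaves, differed by 1.88 (SE 0.17, limma adjusted p = 1.3e-05), *NCED9*, a dioxygenase gene of seeds, was 2.46-fold higher (SE 0.14 on the log2 scale, limma adjusted p = 5.9e-05) and *AAO3*, the gene for the last oxidation step, differed by 1.03 (SE 0.18, limma adjusted p = 0.0012). Salt called 6 of the 9 genes in iU1-52, where 13.1% of all features were called higher, and 3 in Col-0, where 11.1% were called higher, and every one of these calls was higher with salt. On MS, 0 genes of the 3 lists were called between the lines by limma, where 0.321% of all features were called. None had an adjusted p under 0.05, where 0.519% of all features did, and 2 genes (*NCED2* and *BGLU18*) had an unadjusted limma p under 0.05.

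**Figure D4:**
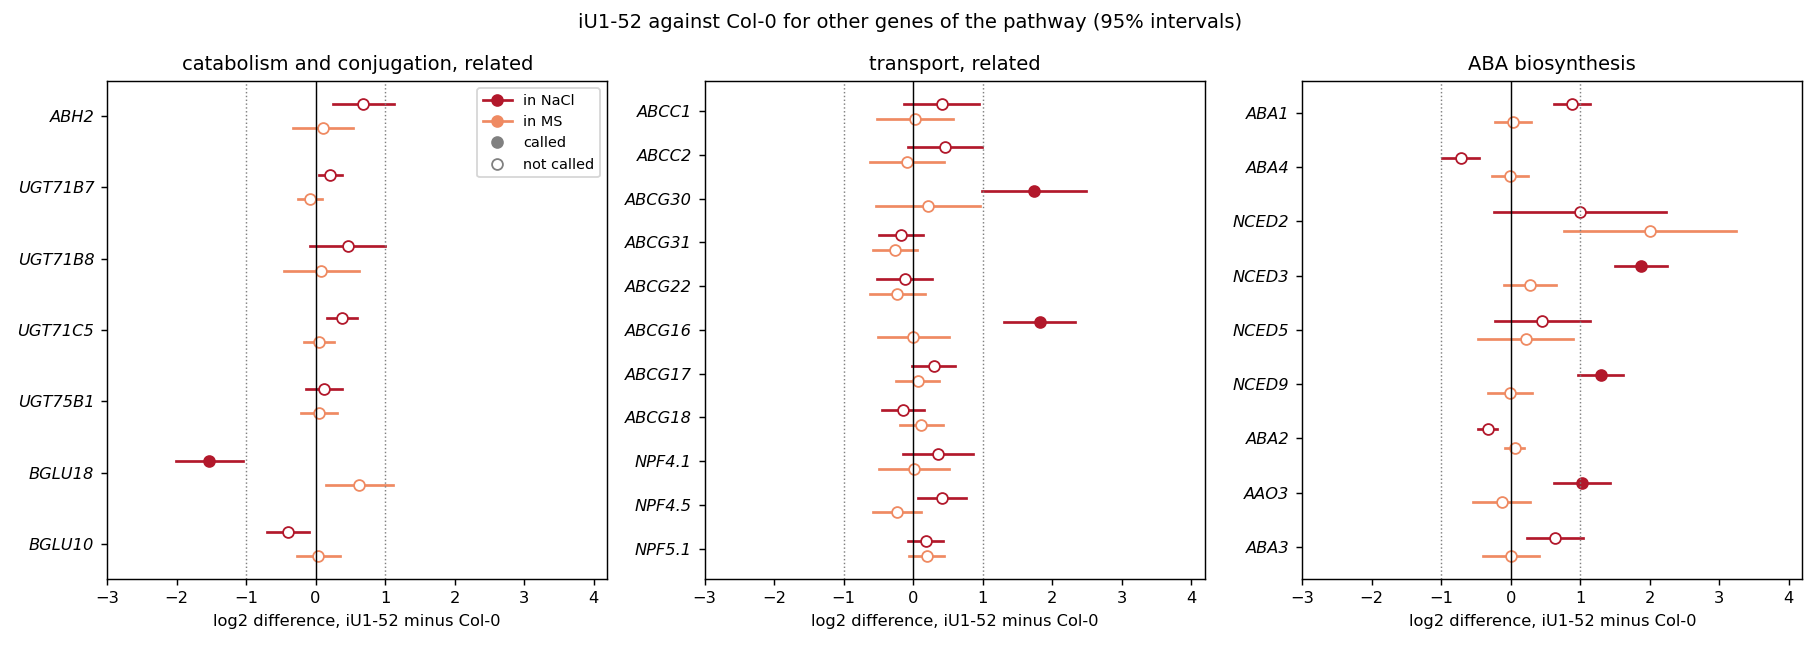
Difference in normalized log2 signal of iU1-52 minus Col-0 (x axis) on NaCl and on MS for the related catabolism, transport and biosynthesis genes (rows). On NaCl *NCED3*, *ABCG16* and *ABCG30* lie between 1.74 and 1.88 on the right and *BGLU18* lies at -1.53 on the left. On MS the related genes were not called, where 0.321% of all features were called.

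The paper reports that iU1 seeds germinated late under NaCl. Most iU1 seedlings then stopped developing, with cotyledons that neither expanded nor turned green. Line differences under NaCl, and the interactions, therefore compare seedlings that may differ in developmental stage. RNA came from whole seedlings, so that fewer cells of a type and less RNA per cell cannot be told apart. Markers of some tissues and of seed maturation moved with the comparison under NaCl. Of 14 seed maturation genes, 13 were called higher in salted iU1-52 than in salted Col-0, where 5.35% of all features were called higher. The mean log2 signal of the list was 15.75 to 15.99 on the salted iU1-52 arrays against 12.56 to 14.23 on the salted Col-0 arrays. On MS it was 3.26 to 3.71 in iU1-52 and 3.44 to 3.57 in Col-0, with at most 4 of the 14 genes well above background on an array. Of 9 green tissue genes, 7 were called lower in salted iU1-52, where 5.68% of all features were called lower. The list mean was 14.63 to 14.97 there against 16.57 to 16.64 in salted Col-0.

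Of 6 guard cell genes, 4 were called lower in salted iU1-52 (list mean 6.64 to 7.54, against 8.32 to 8.45 in salted Col-0), where 5.68% of all features were called lower. Of 5 vascular genes, 2 were called higher and 1 lower in salted iU1-52 (10.38 to 10.44, against 9.82 to 10.02 in salted Col-0), where 11.0% of all features were called. Of 7 root genes, 0 were called by limma (10.98 to 11.06 in salted iU1-52, against 10.69 to 10.78 in salted Col-0), where 11.0% of all features were called. By the adjusted p alone 3 of these 7 passed, against 51.0% of all features, and 4 had an unadjusted limma p under 0.05. All green tissue, root, guard cell and vascular markers were well above background on all 12 arrays. On MS, 0 genes of these 5 lists were called between the lines by limma, where 0.321% of all features were called. None had an adjusted p under 0.05, where 0.519% of all features did, and 2 genes (*MYB60* and *APL*) had an unadjusted limma p under 0.05. The part of these marker differences in the line differences of *CYP707A1*, *CYP707A2*, *BGLU33*, *ABCG25* and *ABCG40* under NaCl was not tested. The part of developmental stage in these line differences was not tested either.

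The genes whose signals ran most like those of the 10 over the 12 arrays were found by Pearson correlation among 19529 genes. *UNE15* ran most like *BGLU33* (r = 0.997), AT1G65690 most like *CYP707A1* (r = 0.994) and *NF-YA1* most like *ABCG25* (r = 0.988). *HSF A4A* ran most like *DTX50* (r = 0.983), *EXLA3* most like *CYP707A3* (r = 0.981), *PEN2* most like the brighter *NPF4.6* probe (r = 0.977) and AT4G34380 most like *UGT71B6* (r = 0.976). The dimmer *NPF4.6* probe, which did not go the same way, was not used here. *OTS2* ran most like *CYP707A4* (r = 0.976), AT4G13990 most like *CYP707A2* (r = 0.958) and *CYP71A16* most like *ABCG40* (r = 0.956). The correlations describe 4 groups of arrays that share their medium and line, and among the 10 genes themselves they ran between -0.956 for *CYP707A1* with *BGLU33* and 0.924 for *CYP707A3* with *DTX50*.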

How the data were processed

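Cy3 intensities of 12 one-colour Agilent arrays were used, with groups and replicate numbers taken from the sample labels. The authors deposited these intensities from Feature Extraction as linear values with the background subtracted in each array and no normalization across arrays. Control spots and outlier-flagged spots (2 to 10 per array) were left out, spots of a probe were averaged, probes under 100 on every array were dropped, and the signals were quantile normalized and taken to log2. The brightest probe stood for its gene. Probes were matched through accessions to TAIR10.1 locus tags for 34358 of 43603 probes (78.8%), and coordinates were not used. Between 75.4% and 79.4% of spots were well above background and 0 were saturated. The number of arrays limits the precision.

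Differences were tested with limma 3.58.1 under R 4.3.3 (1 mean per group, all 12 arrays, Benjamini-Hochberg over 23680 features), with intervals at the 95% level. The series design speaks of independent experiments, while the methods also mention that labelled material was pooled, without saying over what, so p-values measure only the spread between these samples. Each slide held 1 array of every group with each group at 1 fixed position, and position and group thus cannot be told apart. The procedure was tested on simulated data. All 10 genes, and related genes that were called in some comparison, could be named with values, together with the genes most like each of the 10. The genes and lists were chosen with earlier results of these data known. The alternatives were 75th percentile scaling, normexp background correction (offset 50, on median pixel intensities), other filters on dim probes, array weights, the replicate number as a block, a fit of only the arrays compared, other probes of a gene or their mean, each array left out, single criteria, and the 2-way ANOVA of the methods with the fold criterion.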

Additional observations from a re-analysis of the deposited data

Results flagged for a closer look

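For 5 of the 10 genes the line difference under NaCl differed from that on MS at an adjusted p under 0.05 for the interaction (limma, Benjamini-Hochberg), where 28.8% of all features did. The line difference on NaCl minus that on MS was -2.36 for *BGLU33* (adjusted p by limma 0.00068), 1.33 for *ABCG25* (0.00014) and 1.33 for *CYP707A2* (0.012). It was 0.73 for *CYP707A1* (0.010) and 0.58 for *NPF4.6* (0.0499), both under 2-fold. For *NPF4.6* the dimmer probe gave -0.15 in place of 0.58.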

How the results depend on the processing

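Of 1015 values of single genes under the alternatives, 966 kept their direction and their side of the threshold, 22 kept the direction and lost the call, and 27 changed sign. The number of genes called on MS was 0 with only the arrays compared, and between 0 and 1 when single arrays were left out, where *ABCG40* lost its adjusted p. The number called for the interaction was 5 at the adjusted p alone. Leaving out single arrays gave between 4 and 5 calls for the lines under NaCl, 3 for the interaction in every case, and between 5 and 6 for salt in either line. The shares of all features called ran between 9.91% and 14.4% for the lines under NaCl and between 8.43% and 13.5% for the interaction. For salt they ran between 26.8% and 28.0% in iU1-52 and between 22.8% and 23.4% in Col-0. The replicate number shared a slide, but same-numbered arrays deviated together only weakly (r between -0.05 and 0.21 over 18 pairs), and with the replicate number as a block the fit called 2601 features under NaCl in place of 2612, 5 of them among the 10 genes, and changed no call of the 10 genes.

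Sign changes were mostly in differences near 0. With array weights, *CYP707A4* gave -0.0589 for the lines on MS and *NPF4.6* gave 0.0173 for salt in iU1-52. With the mean of all probes, *NPF4.6* gave -0.00397 for the lines under NaCl and 0.0894 for salt in iU1-52. The dim *CYP707A3* probe gave -0.23 for the lines under NaCl, and the dimmer *NPF4.6* probe gave -0.42 for the lines under NaCl, -0.15 for the interaction, and 0.30 in iU1-52 and 0.45 in Col-0 for salt. When single arrays were left out, the line difference on MS ran between -0.25 and 0.0444 for *CYP707A2*, -0.17 and 0.28 for *CYP707A4*, -0.0831 and 0.21 for *UGT71B6*, -0.87 and 0.0111 for *CYP707A3*, and -0.22 and 0.12 for *DTX50*. Under NaCl it ran between -0.0301 and 0.22 for *CYP707A3* and -0.20 and 0.38 for *DTX50*. The interaction of *DTX50* ran between -0.15 and 0.43, the salt difference of *CYP707A2* in Col-0 between -0.29 and 0.0905, and that of *NPF4.6* in iU1-52 between -0.25 and 0.039. Normexp called 53 features between the lines on MS in place of 76, and 1760 in place of 2612 under NaCl. Array weights raised these counts to 122 on MS and 3288 under NaCl. Without iU1-52 NaCl replicate 1, 3399 features were called under NaCl. With only the arrays compared, 42 were called on MS. The cause of these shifts was not tested.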
